A study of Caenorhabditis elegans with 2 samples.

Results

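Binding of CEH-44 at the genes for small nuclear RNAs (snRNAs) of Caenorhabditis elegans was examined in peak lists from chromatin immunoprecipitation and sequencing (ChIP-seq). The members were all genes of biotype snRNA on the nuclear chromosomes of the Ensembl annotation, without the splice leader genes. That left 99 of 129 snRNA genes, out of 46890 nuclear genes, and 30 splice leader genes were set aside. The members carried 74 distinct sequences, so many were copies of each other. CEH-44, the worm CUX protein, is a CUT-type homeobox factor whose known roles are in neurons. The strain carried an insertion made by CRISPR at the endogenous ceh-44 gene, adding TY1, EGFP and 3xFLAG tags, and the fusion protein was precipitated with an antibody against GFP. Chromatin came from whole L4 larvae aged 49 hours, grown from L1 larvae that had been starved after bleaching, and was sonicated to fragments of 200 to 800 bp. There were 2 biological replicates in 1 group and no second condition, so every value describes this strain and stage only, and cells of all tissues were mixed.

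The snRNAs are the RNA cores of the spliceosome. U1 pairs with the 5′ splice site, U2 with the branch point, U5 holds the exons, and U4 and U6 enter paired with each other before U6 joins the catalytic core. RNA polymerase II makes most of them and RNA polymerase III makes U6, and both kinds of promoter are known to depend on a proximal sequence element bound by the SNAPc complex. SmY RNAs are nematode RNAs that carry Sm proteins and are linked to trans-splicing.

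The annotation gives each member as a small nuclear RNA without its U class. Each gene was therefore placed by a short word known from its RNA, which gave 12 U1 genes (ACTTACC, the region that pairs with the 5′ splice site), 19 U2 genes (GTAGTA, which pairs with the branch point), 5 U4 genes (GCTTTGC), 11 U5 genes (CTTTTAC, the loop that contacts the exons) and 22 U6 genes (ACAGAGA, which replaces U1 at the 5′ splice site). The 10 SmY genes were taken by name, and 20 members had none of these words. The first 60 bases of 2 members with strong peaks are shown from the reference genome (WBcel235, the same sequence as ce11), 5′ to 3′ on the gene's strand, with the class word in capitals. They are the U1 gene sup-6 (chrII:12944908-12944967, minus strand) and the U4 gene C52E4.8 (chrV:11980118-11980177, plus strand).
sup-6: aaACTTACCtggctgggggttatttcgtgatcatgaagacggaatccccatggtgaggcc
C52E4.8: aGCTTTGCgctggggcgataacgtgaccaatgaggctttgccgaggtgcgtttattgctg

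The 100 bases before the start differed by class, and 8 genes are shown to set the words described further on beside each other. Capitals mark GCGNAACC (any base at N), TATATAA and TGTCGGTA. The windows are those of sup-6 (U1, chrII:12944968-12945067, minus strand), F11A5.14 (U2, chrV:16225888-16225987, minus strand), C52E4.8 (U4, chrV:11980018-11980117, plus strand), ZK897.2 (U5, chrIV:12781966-12782065, plus strand), W05B2.8 (U6, chrIII:10989579-10989678, plus strand), F54D8.7 (U6, chrIII:5080899-5080998, minus strand), K09B11.12 (U6, chrIV:13438997-13439096, plus strand) and smy-4 (SmY, chrV:14094700-14094799, minus strand). C52E4.8 holds none of the 3 words. The first 6 belong to genes with a peak and the last 2 to genes without one.
sup-6: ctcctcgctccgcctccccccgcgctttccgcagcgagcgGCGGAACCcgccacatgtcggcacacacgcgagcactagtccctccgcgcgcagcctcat
F11A5.14: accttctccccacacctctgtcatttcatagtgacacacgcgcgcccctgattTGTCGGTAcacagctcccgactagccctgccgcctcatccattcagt
C52E4.8: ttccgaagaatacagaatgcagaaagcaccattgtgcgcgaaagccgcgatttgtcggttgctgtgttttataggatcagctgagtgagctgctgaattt
ZK897.2: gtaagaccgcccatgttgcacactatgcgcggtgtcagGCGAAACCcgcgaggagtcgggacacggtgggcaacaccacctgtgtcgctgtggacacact
W05B2.8: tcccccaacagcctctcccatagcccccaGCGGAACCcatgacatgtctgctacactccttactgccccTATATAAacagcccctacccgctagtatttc
F54D8.7: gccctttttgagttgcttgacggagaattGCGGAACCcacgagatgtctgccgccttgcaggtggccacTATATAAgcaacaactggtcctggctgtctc
K09B11.12: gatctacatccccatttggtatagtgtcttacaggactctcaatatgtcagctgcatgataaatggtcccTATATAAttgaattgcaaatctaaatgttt
smy-4: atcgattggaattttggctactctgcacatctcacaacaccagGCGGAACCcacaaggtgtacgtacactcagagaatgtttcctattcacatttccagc

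A gene was counted as having a peak when a summit of the larger series list lay within 250 bp of the gene. This held for 25 of the 99 members, or 25.3% (95% Clopper-Pearson interval 17.1% to 35.0%), beside 3.25% of all nuclear genes, 3.46% of coding genes and 3.18% of the other noncoding genes. The peaks were at genes of the spliceosome: 24 of the 69 genes of the 5 U classes had one (34.8%, 23.7% to 47.2%), and the remaining one was mir-1831, a 22 bp entry that the annotation places inside the U1 gene sup-39 and that shares its peak. Intervals cover counting error only, and near-identical copies are not independent.

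The classes differed in their counts. U1 genes had a peak in 8 of 12 cases (66.7%, 34.9% to 90.1%), U5 genes in 5 of 11 (45.5%, 16.7% to 76.6%) and U2 genes in 5 of 19 (26.3%, 9.15% to 51.2%). U6 genes had one in 5 of 22 cases (22.7%, 7.82% to 45.4%) and U4 genes in 1 of 5 (20%, 0.505% to 71.6%). None of the 10 SmY genes had a peak, which allows a share of up to 30.8%. The intervals of the 5 U classes overlapped, and differences between classes were not tested. Among other small RNA genes, 49.7% of 612 tRNA genes, 20.2% of 346 snoRNA genes, 44.4% of 18 SL2 and 0% of 12 SL1 splice leader genes had a peak by the same count. The U classes together thus lay between the snoRNA and the tRNA genes. No peak near a member was also within 250 bp of a tRNA, snoRNA or splice leader gene.

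**Figure D1:**
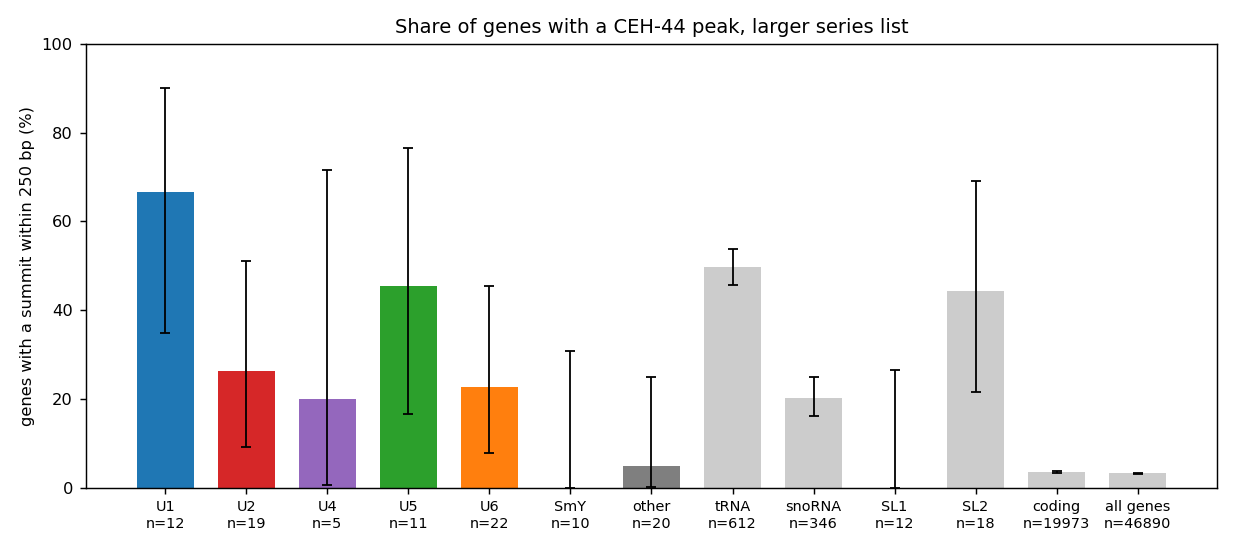
Percentage of genes with a summit of the larger series list within 250 bp (y axis, %), by snRNA class in colour and for other gene classes in grey (x axis, with the number of genes). Bars are shares and lines are exact 95% binomial intervals; U1 stands at 66.7%, SmY at 0% and all nuclear genes at 3.25%.

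The same genes were looked up in the other lists. The conservative series list placed a peak at 22 members, beside 3.14% of all nuclear genes. It lacked the peaks at T27E4.10, T27E4.11, Y57G11C.35, Y69A2AR.36 and WBGene00235247, and added F08G2.9 and W07G1.9. The list made within replicate 1 placed one at 12 members, or 12.1%, beside 1.33%, and the list of replicate 2 at 14 members, or 14.1%, beside 1.87%. Each list thus held a larger share of the snRNA genes than of all genes. Of the 25 members of the larger list, 10 were in the lists of both replicates, 1 in that of replicate 1 alone, 4 in that of replicate 2 alone and 10 in neither. The same split over all 1027 peaks of that list was not counted. The U1 gene F40G12.14 was in the list of replicate 1 but not in the larger series list.

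The peaks near members were 25 of 1027 peaks (2.43%), beside 78 of 114530 ranked candidates that did not pass (0.0681%). Their median signal was 83.8, beside 75.8 for the other peaks. The signal is the authors' own value for each peak, on a scale not given in the sources used here. Of the 25 peaks, 3 were among the 100 strongest of the list, 11 more were within the first 500 and 11 were weaker.

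U6 held the strongest of these peaks. W05B2.8, a U6 gene in an intron of the dynein heavy chain gene dhc-4 (chrIII:10989679-10989780, plus strand), had a series signal of 172, the rank of 37 in the list, and candidate signals of 69.1 in replicate 1 and 95.3 in replicate 2. F54D8.7, an intergenic U6 gene whose summit also lay in the promoter of the respiratory chain gene cox-6A, had a series signal of 106 and 57.4 and 58.9 in the replicates. These were the U6 genes in the lists of both replicates. C28A5.7, in an intron, had a series signal of 70.8 and 32.9 and 37.1 in the replicates. K09C6.12, in an exon of K09C6.2, had a series signal of 63.2 and 28.6 and 35.1 in the replicates. Neither was in a replicate's own list, whereas WBGene00235247 (chrIV:4930954-4931055, plus strand), in an intron of Y9C9A.8, was in that of replicate 2. It had a series signal of 56.6 and replicate signals of 17.02 and 41.3. Of the U6 genes without a peak, R07E5.16 reached 54.7 and T08B6.62 reached 49.9 in the ranked series list.

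Identical U6 genes differed from one another. W05B2.8 is 1 of 14 copies of the same 102 bp sequence, and 4 of the 14 had a peak, namely W05B2.8, C28A5.7, K09C6.12 and WBGene00235247. The other 10 copies included K09B11.11 to K09B11.16, a cluster of 6 in an intron of mam-3 on chromosome IV, of which 4 had any series candidate, with signals from 14.9 to 29.2. Most gene bodies of U6 are repeated: a median of 100% of their 30-base words occurred elsewhere in the genome, with the lowest value of 10.1% at B0205.15. In the 250 bp upstream, 0% to 11.8% of such words were repeated at the copies with a peak and 49.3% to 77.8% in the K09B11 cluster. Low values were also found without a peak, with 11.3% at R07E5.16 and 0% at Y17G9A.90. How the authors placed reads that match several copies is not given in the sources used here, and the part of repeats in these differences was not tested.

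U4 had 1 gene with a peak, and it was the second strongest of all members. C52E4.8 (chrV:11980118-11980261, plus strand) had a series signal of 149.5, and the replicates gave 60.9 and 90.0 in order. Its summit lay 45 bp before the gene start and also in the promoter of snr-4, which encodes an Sm protein that binds snRNAs. Which of these genes the peak serves cannot be told apart. K03B8.10 had a series candidate of 60.8, with 14.2 and 43.3 in the replicates, and no peak. F10D2.13, in an intron of ugt-37, had 42.3 with no candidate in replicate 1.

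U1 had the most genes with a peak and the highest class median, 76.3 for the best series candidate. The strongest, sup-6 (chrII:12944803-12944967, minus strand), named after a suppressor mutation, lies in an intron of F58G1.7 and had a series signal of 141 (replicate 1: 68.6, replicate 2: 67.3). F08H9.10, annotated over an exon of the heat shock gene hsp-16.20, had a series signal of 119.7, with 51.3 and 67.2 in the replicates. T08G5.11 had 106, with 53.9 and 48.5, and sup-39 had 104, with 55.4 and 47.4. All of these were in the lists of both replicates. Of the other U1 peaks, H27M09.6 and T27E4.11 differed most between replicates. H27M09.6 had a series signal of 83.8, and replicate 1 at 58.1 was above replicate 2 at 31.3. T27E4.11 had a series signal of 71.2, and replicate 1 at 13.7 was below replicate 2 at 60.7. Its summit lay 167 bp from the start, past the gene's end. F08H9.11 had 81.4, with 39.6 and 40.9, and T27E4.10 had the lowest U1 signal of 51.9, with 29.2 and 25.97. H27M09.6 was in the list of replicate 1 alone, T27E4.11 in that of replicate 2 alone, and the last pair in neither. All 4 other U1 genes had a candidate, of 57.1 at F40G12.13, 53.3 at F40G12.14, 50.4 at T27E4.12 and 28.1 at C27H5.11. Repeats also limit the U1 count. At T27E4.10 and T27E4.11, 100% of the 250 bp upstream was repeated, by the measure used for U6. The conservative list had neither of these peaks, and 6 of the 12 U1 genes had a peak there. The part of repeats in these peaks was not tested. The summits of F08H9.10, sup-39, H27M09.6 and F08H9.11 also lay in promoters of coding genes. Which gene those peaks serve cannot be told apart.

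Of the 11 U5 genes, 10 were on chromosome IV, 3 of them in introns of unc-31, a gene for dense-core vesicle release. ZK897.2 (chrIV:12782066-12782187, plus strand), one of those 3, had the highest signal of 109, beside 50.1 and 64.4 for replicates 1 and 2, and was the U5 gene in both replicates' lists. F42C5.12 had 91.8, with 30.3 and 57.7, and F38E11.10 had 73.5, with 32.3 and 38.8. F07C6.5, in an intron of pin-2, had 66.0, with 31.5 and 34.6. The weakest peak of any member was at Y69A2AR.36, with a series signal of 49.1 and replicate signals of 17.6 and 32.7. ZK897.3, also in an intron of unc-31, had 44.9 and F38E11.11 had 44.2 without a peak.

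U2 genes lay mostly on chromosomes I, with 9, and II, with 7, and had a peak at 3 of the former and 0 of the latter in the larger list. In the conservative list, F08G2.9 and W07G1.9, both on chromosome II, also had one, whereas Y57G11C.35 had none. F11A5.14 (chrV:16225701-16225887, minus strand), the single U2 gene of chromosome V, had the highest signal of 114, beside 48.9 and 63.9 for replicates 1 and 2. It was the U2 gene in both replicates' lists. The chromosome I genes F56H6.16 and Y47H9A.2 were in the list of replicate 2 alone, with series signals of 105.2 and 89.5. F56H6.16 had 29.4 in replicate 1 and 70.1 in replicate 2, and Y47H9A.2 had 29.2 and 62.5, so both were over 2 times higher in replicate 2. F56H6.14 had 66.1, with 31.4 and 35.0. Y57G11C.35, on chromosome IV, had 2 peaks in the larger list, the stronger of 54.4, with 13.9 and 45.5 in the replicates. In the ranked series list F08G2.9 had 53.5 and R05D7.6 had 51.002.

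The SmY genes had neither peaks nor strong candidates. All 10 had a series candidate, with a median of 27.6 and a range of 20.8 to 40.4. The highest were smy-6, at 40.4 with 13.3 in replicate 1 and 26.6 in replicate 2, and smy-8, at 38.5 with 16.5 and 20.2. These values lay below the lowest signal of a member with a peak. The 20 members without a class word had a median of 25.2 (range 8.002 to 104) over the 13 that had a candidate, and 7 had none. Of the 20, 6 lie in exons of cyp-34A genes, for cytochrome P450 enzymes, and none of these had a peak. The highest without a peak were T27E4.22, at 50.4, which overlaps the U1 gene T27E4.12 and shares its candidate, and M163.13, on chromosome X, at 43.2.

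Across all members, 86 had a series candidate within 250 bp and 13 had none. The median was 39.7 (quartiles 27.6 and 59.9), beside 18.6 for all 115557 candidates, and 77 of the 86 were above the latter. The best of several nearby candidates was taken for each gene, so the median of single candidates is not the same measure. The medians, taken the same way, were 61.1 for tRNA, 32.2 for snoRNA and 60.8 for SL2 genes. By class the medians were 76.3 for U1, 47.0 for U5, 44.5 for U2, 42.3 for U4 and 29.2 for U6. U5, U2 and U4 thus lay close to each other, within their quartiles of 40.2 to 71.6, 33.9 to 54.4 and 41.0 to 60.8.

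**Figure D2:**
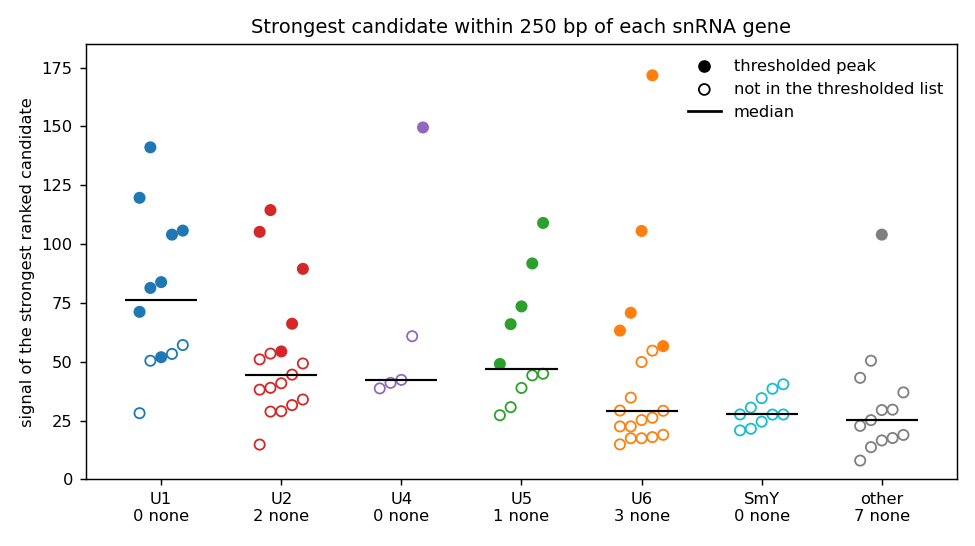
Series signal of the strongest ranked candidate within 250 bp of each snRNA gene (y axis, authors' signal value) by class (x axis, with the number of genes that had none). Filled points are in the thresholded list, open points are not and bars are class medians; all 10 SmY genes lie between 20.8 and 40.4.

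Signal did not decide alone which candidates passed. The thresholded lists rest on an irreproducible discovery rate (IDR), which is low where a candidate ranks both high and alike in the inputs compared. Just inside the threshold, Y69A2AR.36 had a −log10 IDR of 2.00 at a signal of 49.1. Just outside, K03B8.10 had 1.88 at a signal of 60.8. In all, 10 members without a peak had a higher signal than the weakest member with one, and none of those without a peak reached a −log10 IDR of 2.

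In the replicates, 63 members had a candidate in both, and the values ranked alike, with a Spearman rho of 0.653 across genes, which share libraries and copies and are not replicates. Replicate 2 was higher at 49 of the 63, with a median ratio of 1.28. The lists as a whole differed in the same direction, with median candidate signals of 11.9 in replicate 1 and 14.4 in replicate 2, so a higher value in replicate 2 is no difference in binding by itself. The 25 members with a peak had replicate 1 signals from 13.7 to 69.1 (median 32.9) and replicate 2 signals from 25.97 to 95.3 (median 47.4). Those without a peak had 8.71 to 39.6 (median 17.3, 45 genes) and 9.94 to 43.3 (median 20.7, 51 genes). Both ranges overlapped in each replicate, and these signals had a part in choosing the members with a peak. In neither replicate had 16 members a candidate.

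**Figure D3:**
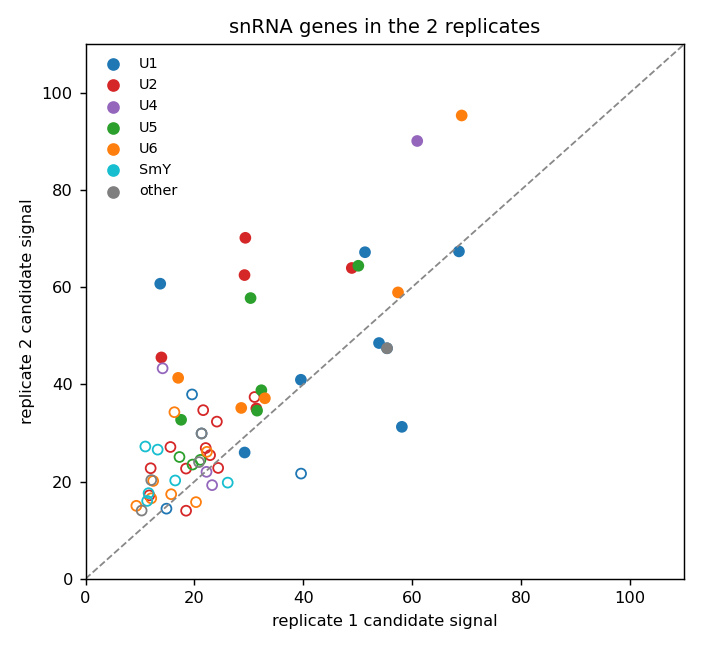
Candidate signal of the 63 snRNA genes with a candidate in both replicates, replicate 1 (x axis) against replicate 2 (y axis, both the authors' signal value). Colours are classes, filled points have a series peak and the dashed line is equality; 49 of the 63 points lie above it.

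Summits lay in the genes or close to them, within the 250 bp that the count allowed. Measured on the gene's strand, the median position of the strongest summit was 16 bp after the start (quartiles −22 and 34, range −65 to 167). For 9 of the 25 members the summit lay before the start, for 15 in the gene and for 1 beyond it, with sup-39 and mir-1831 sharing 1 summit. The median was 21 bp for U1, 42 bp for U2, 3 bp for U6 and −11 bp for U5. The fragments of 200 to 800 bp are longer than all of these genes or distances, so small differences in position cannot be read as separate sites. For 10 of the 25 members, at 9 distinct summits, the summit also lay in the promoter of a coding gene. Beside those named above, these members include the U2 genes F56H6.16 and F56H6.14 and the U5 gene F38E11.10. Which gene such a peak serves cannot be told apart, and the share of all peaks in a coding promoter was not counted.

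**Figure D4:**
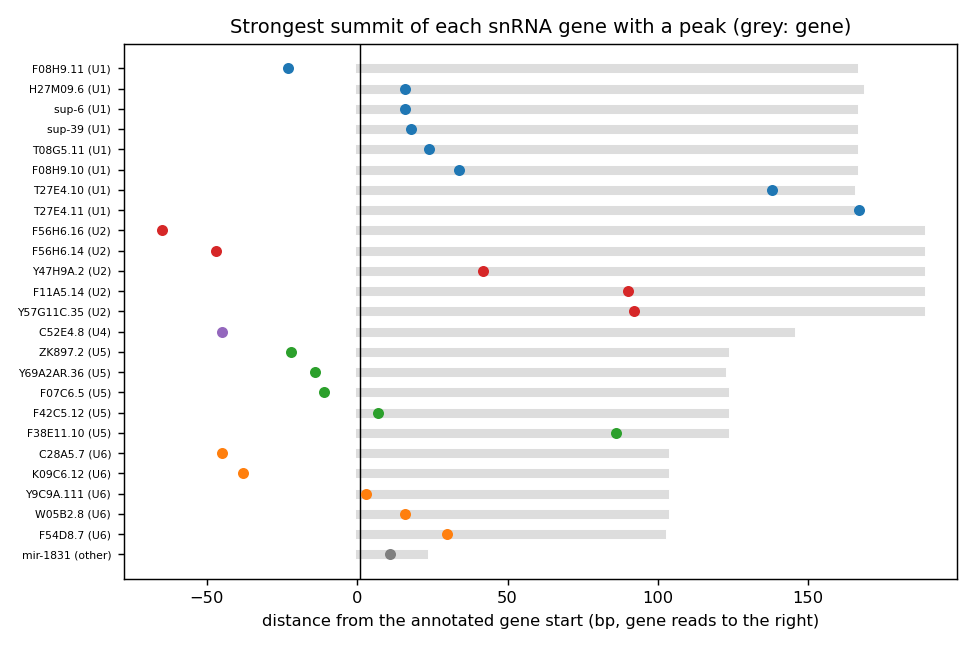
Distance of the strongest summit from the annotated start (x axis, bp on the gene's strand) for the 25 snRNA genes with a peak (y axis, 1 line each, class in parentheses). Points are summits and grey bars the genes; summits range from −65 to 167 bp, with a median of 16 bp.

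By annotation, 48 members lay in introns of coding genes, 39 were intergenic and 12 overlapped a coding exon. Peaks were found at 11 intronic, 11 intergenic and 3 exonic members. U6 and U5 genes were mostly intronic, with 19 of 22 and 10 of 11, whereas 9 of 12 U1 genes were intergenic. No member of a U class lay on chromosome X, and none of the 3 members there had a peak.

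Words of 8 bases were ranked by the number of members that hold them in the 100 bp before the start. GCGGAACC and the overlapping CGGAACCC led, each in 26 of 99 members (26.3%). Widened to GCGNAACC, with any base at N, the word was in 39 members (39.4%) on the gene strand. It was in 0.17% of 19973 coding starts, 0.163% of tRNA, 7.23% of snoRNA and 33.3% of SL2 starts. The word was drawn from the members' own upstream sequences and was not planned, so a higher share in them is no independent result. GCGNAACC was present in all 11 U5, 8 of 12 U1, 8 of 10 SmY, 8 of 22 U6 and 2 of 5 U4 genes, and in 0 of 19 U2 genes. Its first base lay 59 to 60 bp before the start in U1, 60 to 63 bp in U5, 57 to 63 bp in SmY and 70 to 71 bp in U6. U6 thus stood apart by position.

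Other words were most frequent in one class. TGTCGGTA was in 14 of the 19 U2 genes, 47 bp before the start in all 14, in 3 of 11 U5 and 1 of 5 U4 genes, beside 0.0401% of coding starts and 27.8% of SL2 starts. TATATAA was in 15 of 22 U6 genes, 30 to 31 bp before the start, in 3 members without a class word and in no U1, U2, U4, U5 or SmY gene, beside 2.83% of coding starts. Copies share their upstream sequence in part, so these are not independent counts. A match is a description of letters, not a binding site.

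**Figure D5:**
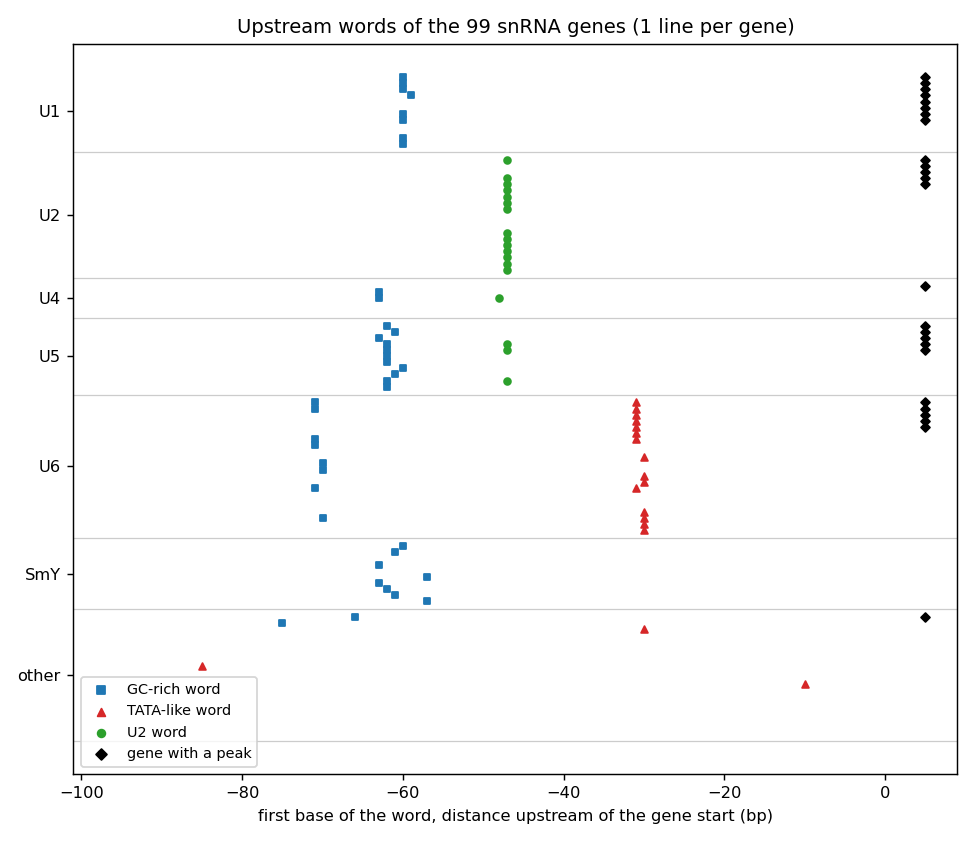
Position of the first base of the GC-rich word GCGNAACC, the TATA-like word and the word typical of U2 genes before the gene start (x axis, bp) in the 99 snRNA genes (y axis, 1 line per gene, grouped by class). Black diamonds mark genes with a peak; the GC-rich word lies at 70 to 71 bp in U6 and at 57 to 63 bp in U1, U4, U5 and SmY.

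The words and the peaks were set side by side. GCGNAACC was before 14 of the 25 members with a peak and 25 of the 74 without. Overlapping members were counted apart here and for AACC, though sup-39 and mir-1831, and likewise T27E4.12 and T27E4.22, share the same upstream word. The shorter AACC, searched between 75 and 51 bp before the start, was before 18 of 25 and 30 of 74. In all it was before 48.5% of members, beside 6.61% of coding, 5.23% of tRNA and 10.7% of snoRNA starts. It was before 16.7% of SL1 and 55.6% of SL2 starts, so it is not particular to snRNA genes. In U6, all 5 genes with a peak had both AACC and TATATAA, as did 3 without a peak. The 7 U6 genes with TATATAA but no AACC in that span, which include the 6 of the K09B11 cluster, had no peak, nor did the 4 with AACC alone and the 3 with neither. The words AACC and TATATAA and this grouping were chosen after the values were seen, and upstream repeats went with it: a median of 0% in the 8 genes with both and 57.0% in the 7 with TATATAA alone. The part of either in the peaks was not tested. In SmY the GC-rich word was common without a peak, in 8 of 10 genes. In U5 it was before all 5 genes with a peak and all 6 without.

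Homeobox-type words, GAGAGA and GCGNAACC were counted around these summits. ATCGAT, known from CUT family binding, and ATCAAT, searched on both strands, were within 50 bp of 0 of 25 summits near members, beside 3.29% and 4.89% of the 1002 other peaks. ATTAAT was at 1 and GAGAGA at 2 of the 25, beside 2.3% and 15.0%. With 25 summits, such shares would be met at few or none. GCGNAACC was within 50 bp of 2 of the 25 summits (8.0%), beside 1.2% of the other peaks. In the 14 members with a peak and the word, the summit lay 40 to 227 bp downstream of the word's first base, with a median of 80.5 bp. These 14 include both sup-39 and mir-1831, which share a word and a summit.

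Of 56 listed coding genes that make or bind snRNAs, 5 had a peak in the promoter (8.93%). A summit from 1000 bp before to 200 bp after the start was counted as in the promoter, which held for 2.99% of 19973 coding genes. None of 15 genes for RNA polymerase III, TBP proteins and SNAPc had one, nor did any of 13 genes for other snRNP proteins. Among 7 Sm protein genes, snr-4 and snr-1 did, with signals of 149.5, the peak shared with C52E4.8, and 113. Among 7 genes for LSm proteins, which bind U6, lsm-7 had one with a signal of 102. Of 11 Integrator genes, for the complex that cleaves snRNA precursors, ints-4 had one with a signal of 94.97, and of 3 genes for snRNP assembly and caps, smn-1 had one with a signal of 98.1. The peaks at snr-4, snr-1 and lsm-7 were in the lists of both replicates, that at ints-4 in that of replicate 2 alone and that at smn-1 in that of replicate 1 alone.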

How the data were processed

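The data were peak lists deposited by the authors for 2 ChIP-seq replicates and for both together, on ce11 per the labels. Each deposited peak has a signal, whose scale is not stated, and in the ranked series list the authors' −log10 IDR. Aligner, peak caller and depth were not given in the sources used here, so no interval could be set on a signal, and control data were not analysed here. Summits were set against Ensembl release 115 genes (WBcel235), with names from RefSeq, matched for all 99 members. The larger series list was the main one, and signals were ranked within a list, with the replicates set side by side. Genes were counted within 250 bp of a summit, with 95% Clopper-Pearson intervals, in Python 3.11.15 with numpy 2.4.6, pandas 2.3.3, scipy 1.17.1 and Biopython 1.88. The counting was tested on simulated summits. No test was run between groups, since there was 1 group. Named genes were, per class, all members with a peak (of more than 5, the 4 strongest and the weakest), the 2 strongest without one and those at the 20 strongest peaks near members. C27H5.11, T27E4.12, Y17G9A.90, W07G1.9, smy-4, the K09B11 genes and the shorter words were named after their values were seen. GCGNAACC was also not among the words planned. The members, lists and words were chosen with earlier results of these data known. Of the listed coding genes, bdp-1, dic-1, sap-1, gemi-2 and snup-1 were not matched by name.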

Additional observations from a re-analysis of the deposited data

How the results depend on the processing

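The count of 25 members with a peak was 22 in the conservative list, 25 with a window of 100 bp, 28 with 500 bp, and 25 when peak intervals overlapped the gene or only the nearest small RNA gene was counted. It was 15 with peaks at or above the list's median signal, with 3 U2, 2 U5 and 2 U6 genes. The share of all genes was not counted for the other windows, for overlap or for these stronger peaks. A wider window takes in more summits at any gene, so these counts have no background beside them. Each replicate's own list gave 12 to 14 members, with 5 to 6 U1, 1 to 3 U2, 2 to 3 U6 genes and 1 U5 gene in each. The counts of U2, U5 and U6 thus depend on the combined list. The replicates' lists were also shorter, with 387 and 525 peaks beside 1027 in the larger series list. Peaks were at 1.33% and 1.87% of all genes there, beside 3.25%, so lower counts are not particular to these classes. Of the U2, U5 and U6 genes with a peak, 1 U2, 1 U5 and 2 U6 genes were in both replicates' lists. In neither were 2 U2, 4 U5 and 2 U6 genes. Genes were also left out where 50% or more of the gene with its 250 bp on each side was repeated. This kept 90 of the 99 members and 21 of the 22 U6 genes, so many genes with a repeated body stayed in. Of those kept, 3 of 13 U2 genes had a peak, and the median summit was 11 bp. That median was 13.5 bp in the conservative list and 17 to 18.5 bp in the replicates. The median candidate signal of 39.7 was 44.2 with a window of 100 bp and 21.1 to 25.7 in the replicates' lists, whose scales differ. With a window of 500 bp, 3 members without a class word had a peak. The cause of these shifts was not tested.

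Chosen after seeing the data, assigning 4 more genes by at least 80% identity changed no count of peaks, and counting overlapping genes once gave 24 of 96. The list of peaks above the median gave no candidate signal. The annotation names no U product, so that alternative was not run. No paired analysis was possible because there was 1 group. Read depth is unknown, so small differences in signal cannot be judged.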
